A study of Mus musculus with 6 samples.

Results

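The genes described here make, sense and move cholesterol: 28 mouse genes, chosen by symbol, of the 24421 gene symbols counted in each of 6 RNA libraries. They comprise 18 enzymes taken in pathway order from acetyl units to cholesterol. The others are 5 genes of sterol-responsive transcription factors and their regulators, and 5 genes of sterol transport and export. All 28 were counted, and all 28 were among the 13848 genes with enough counts to be tested. Each library was labelled as whole embryo at embryonic day 9.5, strain C57BL/6N. They formed a group of 3 wild type libraries and a group of 3 libraries homozygous for a knockout of Lphn2. Lphn2 is an older name of Adgrl2, which encodes latrophilin 2, an adhesion G protein-coupled receptor. The labels name no treatment, and leave unsaid where the deletion lies in the gene, whether a library came from 1 embryo, or from which litters. The comparison asks how the steps of sterol metabolism differed between knockout and wild type.

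Cholesterol is built in the cytosol and the endoplasmic reticulum, where the mevalonate pathway turns acetyl units into farnesyl diphosphate, squalene synthesis and closure give lanosterol, and a last series of enzymes trims lanosterol to cholesterol. When membrane sterol is low, the escort protein Scap carries SREBP transcription factors to the Golgi for cleavage, and the released fragments switch on genes of synthesis and uptake; when sterol is plentiful, Insig proteins hold the complex back. Liver X receptors respond to oxidised sterols by inducing exporters such as Abca1 and Abcg1, and embryos with defects in several of the late enzymes are known to be malformed.

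SREBP factors bind sterol regulatory elements in the promoters of these genes, usually next to sites for the CCAAT-binding factor NF-Y. Promoter windows of 300 bases, from 250 bases before to 50 bases after the annotated start, were taken from RefSeq on GRCm38.p6 (the assembly known as mm10) for the 22 of 28 members that matched by symbol (not Fdps, Fdft1, Sqle, Stard4, Npc1 and Abcg1). Of 30 windows of these 22 genes, 20 held CCAAT on either strand (66.7%), against 12289 of all 32851 windows (37.4%). The sterol element letters TCACNCCAC, on either strand, stood in 1 of the 30 windows (3.33%), that of Hmgcs1, against 408 of all windows (1.24%). The 5 windows shown belong to the genes that the values below turn on: Mvk and Hsd17b7, with lower values in the knockout, Srebf2 and Mvd, with higher values, and Hmgcs1, with nearly equal means. They lie at chr5:114444019-114444318 (plus strand, Mvk), chr1:169969156-169969455 (minus strand, Hsd17b7), chr15:82147019-82147318 (plus strand, Srebf2), chr8:122443373-122443672 (minus strand, Mvd) and chr13:119690101-119690400 (plus strand, Hmgcs1). Each is written 5′ to 3′ on the strand of its gene, and capitals mark CCAAT, its reverse complement ATTGG, or the sterol element of Hmgcs1, which overlaps no CCAAT.
Mvk: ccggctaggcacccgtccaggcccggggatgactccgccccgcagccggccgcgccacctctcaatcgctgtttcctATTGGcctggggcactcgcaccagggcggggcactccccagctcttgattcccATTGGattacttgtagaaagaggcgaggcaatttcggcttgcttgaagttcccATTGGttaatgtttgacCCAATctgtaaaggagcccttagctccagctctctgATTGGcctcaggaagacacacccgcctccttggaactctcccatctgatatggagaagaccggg
Hsd17b7: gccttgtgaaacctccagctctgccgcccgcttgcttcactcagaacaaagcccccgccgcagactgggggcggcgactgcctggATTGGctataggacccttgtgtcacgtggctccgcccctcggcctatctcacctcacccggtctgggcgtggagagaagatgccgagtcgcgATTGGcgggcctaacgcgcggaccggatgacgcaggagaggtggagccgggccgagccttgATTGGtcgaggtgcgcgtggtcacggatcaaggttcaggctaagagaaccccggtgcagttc
Srebf2: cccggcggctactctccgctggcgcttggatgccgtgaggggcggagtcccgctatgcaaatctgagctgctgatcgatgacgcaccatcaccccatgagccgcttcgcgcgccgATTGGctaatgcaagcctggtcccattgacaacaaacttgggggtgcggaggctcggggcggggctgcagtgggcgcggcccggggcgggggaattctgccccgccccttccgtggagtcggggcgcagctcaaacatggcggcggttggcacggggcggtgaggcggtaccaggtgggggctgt
Mvd: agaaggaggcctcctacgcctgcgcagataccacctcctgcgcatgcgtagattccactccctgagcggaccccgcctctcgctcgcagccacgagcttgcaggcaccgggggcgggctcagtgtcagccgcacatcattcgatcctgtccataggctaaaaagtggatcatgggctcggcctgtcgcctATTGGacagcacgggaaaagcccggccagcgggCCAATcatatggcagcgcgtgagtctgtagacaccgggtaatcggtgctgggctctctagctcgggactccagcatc
Hmgcs1: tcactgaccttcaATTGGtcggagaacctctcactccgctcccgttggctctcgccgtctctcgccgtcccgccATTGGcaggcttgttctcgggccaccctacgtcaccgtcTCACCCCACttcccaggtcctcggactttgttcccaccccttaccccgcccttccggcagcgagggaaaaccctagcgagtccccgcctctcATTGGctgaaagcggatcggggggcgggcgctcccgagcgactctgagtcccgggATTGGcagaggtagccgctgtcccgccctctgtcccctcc
The window of Mvk held 5 CCAAT matches, that of Hmgcs1 4, that of Hsd17b7 3, that of Mvd 2 and that of Srebf2 1. These genes were picked for display by their values, and match counts were not tested against the direction of change. A match is a string of letters in this window and not a measured binding site. Only these exact letters were searched, so a window without a match was not shown to lack a sterol element.

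Total counts per library were between 14476809 and 36213611, and 26 of the 28 members had at least 50 counts in every library. Levels are given as CPM after TMM scaling (counts relative to the effective library size). The counts are tags from the 3′ ends of transcripts, and levels are read across libraries within a gene, not between genes. Adgrl2 itself stood at 10.9, 7.56 and 15.96 CPM in wild type (libraries are always listed in the order of replicates 1, 2 and 3) and at 5.49, 1.67 and 2.78 CPM in the knockout replicates. Its log2 fold change was -1.78 (SE 0.50, n = 3 per group) with an adjusted p of 0.194 in edgeR's quasi-likelihood test. Its 3′ tags may lie outside the deleted part, so this does not check the labels. Libraries also differed in the tissues they held. Markers of decidua, the maternal lining of the implantation site, summed to between 19828 and 35734 CPM in wild type and to between 7343 and 12735 CPM in the knockout, although the label is whole embryo. Of these 12 markers, 9 had higher and 3 lower knockout means. The decidual prolactin Prl8a2 stood at 14989, 28746 and 17981 CPM in wild type and at 2900.04, 1279 and 5335 CPM in the knockout. It made up most of the sum in every wild type library and the smaller part of it in every knockout library. Summed trophoblast markers (9 of 12 tested) stood at 4918, 5785 and 1352 CPM in wild type and at 3548, 50.6 and 139.9 CPM in the knockout, and 3 of the 9 were at 0 in both knockout replicates 2 and 3. Yolk sac endoderm markers (12 of 12 tested, all with lower knockout means) summed to between 482 and 785 CPM against 229.7, 26.0 and 39.7 CPM, with 2 at 0 in knockout replicates 2 and 3. Primitive erythroid markers (10 of 10, all with lower knockout means) summed to between 1515 and 2229 CPM against 758, 76.9 and 57.6 CPM, with 2 at 0 in the same replicates. Neural markers (7 of 10 tested) summed to 94.0, 66.8 and 1142 CPM against 59.3, 20.9 and 27.5 CPM, and cardiomyocyte markers (5 of 10 tested) to 74.7, 39.8 and 319.8 CPM against 21.96, 7.53 and 17.1 CPM. Natural killer cell markers (8 of 8, all with higher knockout means) summed to between 224 and 492 CPM in wild type and to between 694 and 1155 CPM in the knockout. Endothelial markers (10 of 10 tested, 9 with higher knockout means) summed to between 1153 and 2092 CPM against between 1910.2 and 2350.5 CPM, and macrophage markers (10 of 10 tested, 8 with higher means) to between 270.4 and 618 CPM against between 332 and 395 CPM. In such tissue RNA, fewer cells of a type and less RNA per cell cannot be told apart, and the part of these tissue differences in the sterol gene values was not tested.

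The sterol pathway as a whole differed little between the groups. Of the 28 genes, 13 had higher and 15 lower levels in the knockout, with a median log2 fold change of -0.03, beside -0.04 over all genes tested. The median size of the difference was 0.241 on the log2 scale, beside 0.356 over all genes. For 22 of the 28 the log2 fold change lay within 0.5 of 0, as it did for 61.5% of all genes tested. From library to library, the highest of 6 was 1.77 times the lowest for the median member, and 2.22 times for the median of all genes. All genes were kept from a minimum count of 10, whereas 26 of the 28 members had at least 50 counts in every library. None of these comparisons with all genes was matched for count. Apart from the barely counted Tm7sf2, the largest differences were those of Mvk, which phosphorylates mevalonate, and Hsd17b7, a late sterol ketone reductase, both lower in the knockout, and of Srebf2, the transcription factor that drives sterol synthesis, which was higher.

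No member passed an adjusted p of 0.05 in edgeR's quasi-likelihood test, in which 0 of all genes (0%) were called higher and 7 (0.0505%) lower. Before adjustment, 2 members, Fdps and Srebf2, were past 0.05 in the higher direction, beside 8.68% of all genes, and 2, Mvk and Hsd17b7, in the lower direction, beside 6.86%. DESeq2 called Srebf2 higher, where it called 3.49% of genes higher, and Mvk and Hsd17b7 lower, where it called 2.87% lower. Limma-voom called no member. In edgeR without knockout replicate 1, Srebf2 was called higher, beside 1.77% of genes, and Mvk lower, beside 3.27%. The knockout libraries lay wholly above the wild type libraries in 3 members, Mvd, Tm7sf2 and Srebf2, beside 12.1% of all genes, and wholly below them in 3, Mvk, Sqle and Hsd17b7, beside 9.39%. These shares of 3 in 28 are near those of all genes.

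**Figure D1:**
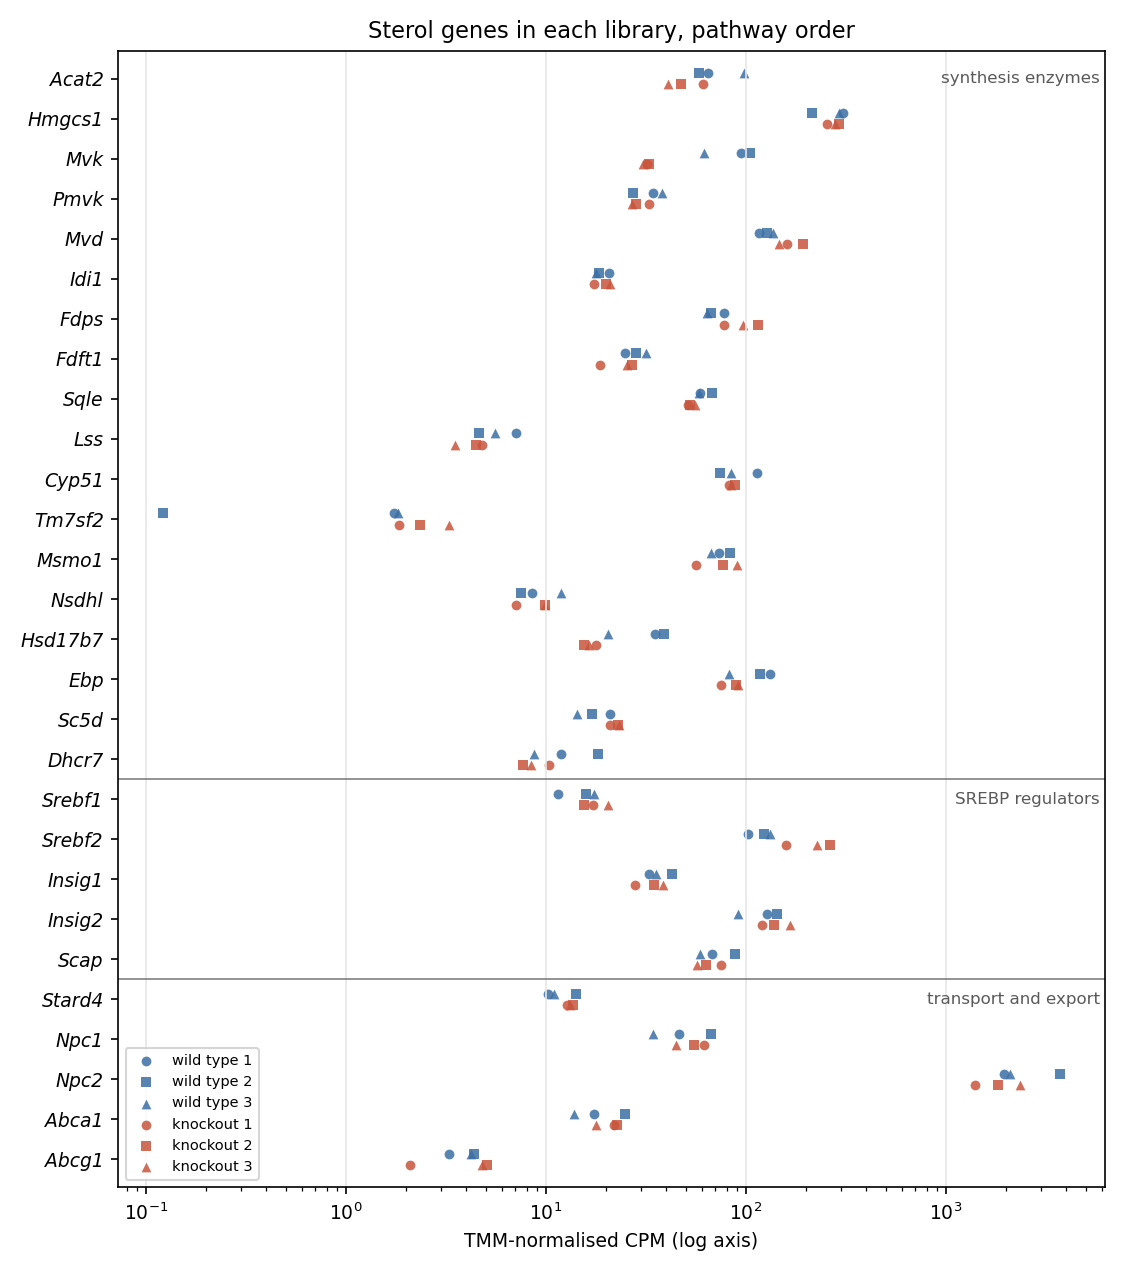
Level of each of the 28 sterol genes in each of the 6 libraries, in pathway order from top to bottom, as TMM-normalised CPM on a log axis, with a symbol for each replicate and a colour for each group. The symbols of the groups intermix in 22 of the 28 genes, and Mvk, Hsd17b7 and Srebf2 are among the 6 in which they do not.

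The route from acetyl units to farnesyl diphosphate held both a lower and several higher values. Its 7 enzymes summed to 713, 617 and 706 CPM in wild type and 634, 727 and 642 CPM in the knockout, and their median log2 fold change was 0.03, with 4 higher and 3 lower. Acat2, which joins a pair of acetyl-CoA units, stood at 64.9, 58.1 and 97.9 CPM in wild type and 61.1, 47.4 and 40.6 CPM in the knockout. The groups overlapped, with wild type replicate 3 above the other 5 libraries. Its log2 fold change was -0.57 (SE 0.26, adjusted p = 0.348 in edgeR's test). Acat3, a closely related neighbouring gene, could share tags with it, so the split of counts between them is uncertain. Hmgcs1, the synthase that makes HMG-CoA and a classical SREBP target, stood at 305, 214 and 291 CPM in wild type and 253, 292 and 279 CPM in the knockout. Wild type replicate 2 was the lowest library and the knockout means and wild type means were nearly equal, with a log2 fold change of 0.03 (95% interval -0.42 to 0.47).

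Mvk, mevalonate kinase (chr5:114444269-114460591, plus strand, GENCODE M21 on mm10), had the largest log2 fold change and the smallest p of the 28 genes. It stood at 94.3, 105 and 61.7 CPM in wild type (mean 87.0 ± 22.6, SD, n = 3) and at 32.2, 32.8 and 30.5 CPM in the knockout (31.8 ± 1.18). The knockout libraries lay within a narrow band below all wild type libraries, and the wild type mean was 2.73 times the knockout mean. The log2 fold change was -1.45 (SE 0.23, 95% interval -1.98 to -0.92), with an adjusted p of 0.146 in edgeR's test. DESeq2 gave an adjusted p of 6.01e-06 and edgeR without knockout replicate 1 one of 0.0424, and over 16 alternatives the adjusted p ran from 6.01e-06 to 0.9995 and the log2 fold change from -1.65 to -1.28. All 6 counts of Mvk share a divisor of 2, which was left in for DESeq2. With common divisors removed, its log2 fold change was -1.44 (adjusted p = 0.133 in edgeR's test). Knockout replicate 1, whose summed trophoblast markers (3548 CPM) lay within the wild type range, had an Mvk level of 32.2 CPM. That level stood beside 32.8 and 30.5 CPM in knockout replicates 2 and 3. The summed decidua markers, carried mainly by Prl8a2 in wild type only, were lower in all 3 knockout libraries, as Mvk was. Among the 12 decidua markers, 9 had higher and 3 lower knockout means. The part of either tissue in the Mvk difference was not tested. Mmab, a cobalamin enzyme that starts 209 bases from Mvk on the opposite strand, stood at 7.14, 3.96 and 4.73 CPM against 7.76, 6.13 and 2.64 CPM, with a log2 fold change of 0.07 (95% interval -1.02 to 1.15). The interval of Mvk lay wholly below 0 and that of Mmab held 0.

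The next enzymes of this route, Pmvk, Mvd, Idi1 and Fdps, had 1 lower and 3 higher knockout means. Pmvk, which adds the next phosphate, ranged from 27.2 to 37.9 CPM in wild type and from 26.9 to 32.6 CPM in the knockout, with a log2 fold change of -0.18 (95% interval -0.63 to 0.27). Mvd, the decarboxylase that yields isopentenyl diphosphate, stood at 117, 127 and 137 CPM in wild type and 159.6, 193 and 147 CPM in the knockout. All knockout libraries of Mvd lay above all wild type libraries, by 1.31 times on the means, with a log2 fold change of 0.39 (SE 0.17, 95% interval -0.01 to 0.80) and an adjusted p of 0.336 in edgeR's test. Idi1, which isomerises isopentenyl diphosphate, ranged from 17.9 to 20.6 CPM against 17.3 to 21.0 CPM, and its interval was -0.41 to 0.47. Fdps, the synthase of farnesyl diphosphate, stood at 77.8, 66.9 and 63.7 CPM in wild type and 77.8, 114 and 96.4 CPM in the knockout. Knockout replicate 1 equalled the highest wild type library of Fdps at this precision, and the other knockout libraries lay above it. The log2 fold change was 0.47 (SE 0.19), with an adjusted p of 0.310 in edgeR's test. Fdps shares exon sequence with the predicted gene Gm43738 on the same strand, so counts of the pair may not be fully separable.

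**Figure D2:**
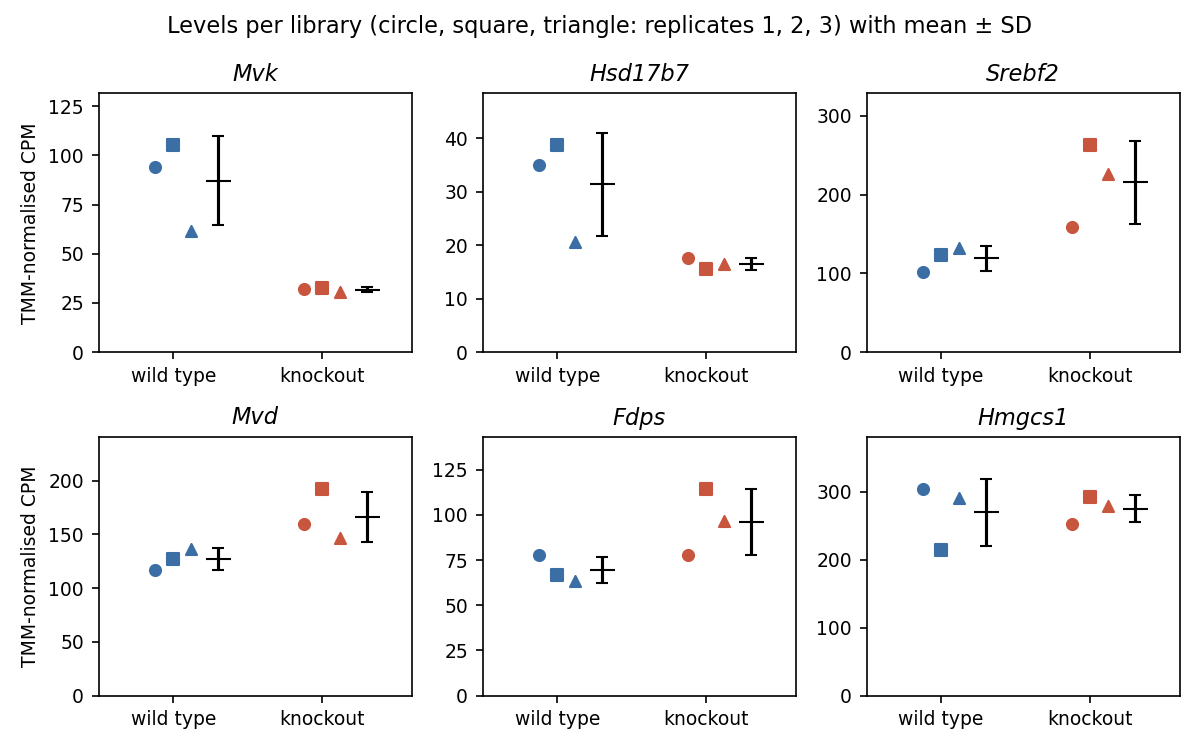
Levels in TMM-normalised CPM of Mvk, Hsd17b7, Srebf2, Mvd, Fdps and Hmgcs1, with 1 symbol per library, the replicate number given by its shape, and the mean ± SD of each group of 3 beside them. Mvk and Hsd17b7 lie lower and Srebf2 and Mvd higher in every knockout library, Fdps meets at 77.8 CPM, and Hmgcs1 overlaps.

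All 3 enzymes that make and close squalene had lower knockout means, by small margins. They summed to 90.9, 100.4 and 95.4 CPM in wild type and 74.9, 83.6 and 84.3 CPM in the knockout, with a median log2 fold change of -0.25. Fdft1, squalene synthase, ranged from 24.7 to 31.5 CPM in wild type and from 18.7 to 26.9 CPM in the knockout, and its exons overlap those of Ctsb on the other strand. Sqle, the squalene epoxidase, a rate-limiting enzyme of the pathway, stood at 59.1, 67.7 and 58.3 CPM in wild type and 51.4, 52.2 and 55.3 CPM in the knockout. The groups of Sqle did not overlap, and the difference was small, with a log2 fold change of -0.22 (SE 0.15, adjusted p = 0.520 in edgeR's test). Lss, lanosterol synthase, stood at 7.10, 4.63 and 5.54 CPM in wild type and 4.78, 4.47 and 3.49 CPM in the knockout, and the groups overlapped. Its log2 fold change was -0.44 (SE 0.32, adjusted p = 0.547 in edgeR's test).

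From lanosterol to cholesterol, Hsd17b7 had the lowest log2 fold change of the 8 enzymes, and differences between the enzymes were not tested. The 8 enzymes summed to 396, 357 and 291 CPM in wild type and 272, 312 and 327 CPM in the knockout, with 3 higher and 5 lower and a median log2 fold change of -0.08. Cyp51, the lanosterol demethylase, ranged from 74.5 to 113 CPM in wild type and from 82.5 to 88.0 CPM in the knockout. Tm7sf2, a sterol reductase, was barely counted, at 0.122 to 1.83 CPM against 1.84 to 3.28 CPM, with as few as 2 counts in wild type replicate 2. Its interval, -1.01 to 2.98 on the log2 scale, was the widest of the members, and its exons overlap those of Vps51 on the same strand. Msmo1 and Nsdhl, which act on the methyl groups of the ring, had log2 fold changes of 0.00 (95% interval -0.50 to 0.51) and -0.06 (-0.73 to 0.62). Msmo1 ranged from 66.8 to 82.9 CPM in wild type and from 56.2 to 90.7 CPM in the knockout, and Nsdhl from 7.495 to 11.8 CPM and from 7.06 to 9.91 CPM.

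Hsd17b7 (chr1:169949535-169969241, minus strand) stood at 34.9, 38.7 and 20.5 CPM in wild type (mean 31.4 ± 9.60, SD, n = 3) and at 17.7, 15.5 and 16.4 CPM in the knockout (16.5 ± 1.08). Like Mvk, it was low in all knockout libraries and lowest among the wild type libraries in replicate 3. The wild type mean was 1.89 times the knockout mean, with a log2 fold change of -0.92 (SE 0.27, 95% interval -1.55 to -0.30) and an adjusted p of 0.194 in edgeR's test. DESeq2 gave an adjusted p of 0.0462, and over 16 alternatives it ran from 0.0462 to 0.9995, with log2 fold changes from -1.16 to -0.73. Hsd17b7 encodes an enzyme that in gonads and placenta can also act on oestrogens. Wild type replicate 3 also had the lowest trophoblast marker sum of its group (1352 CPM). Knockout replicate 1 had a higher sum (3548 CPM) and a lower Hsd17b7 level (17.7 against 20.5 CPM). The part of such tissue differences in the value of Hsd17b7 was not tested.

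The last enzymes did not pass the test, and their groups overlapped. Ebp, the sterol isomerase, stood at 132, 118 and 82.5 CPM in wild type and 75.4, 89.4 and 91.4 CPM in the knockout, and wild type replicate 3 lay among the knockout libraries. Its log2 fold change was -0.37 (SE 0.21, adjusted p = 0.442 in edgeR's test). Sc5d, the sterol desaturase, stood at 20.9, 17 and 14.2 CPM in wild type and 20.8, 22.9 and 23.3 CPM in the knockout. Wild type replicate 1 and knockout replicate 1 of Sc5d were nearly equal, and the log2 fold change was 0.36 (SE 0.21, adjusted p = 0.448 in edgeR's test). Dhcr7, the reductase of the last step and the gene of Smith-Lemli-Opitz syndrome, stood at 11.8, 18.2 and 8.67 CPM in wild type and 10.4, 7.67 and 8.41 CPM in the knockout. Wild type replicate 2 was its highest library, and the log2 fold change was -0.55 (SE 0.32, adjusted p = 0.459 in edgeR's test). Summed over all 18 enzymes, wild type libraries held 1199.5, 1074 and 1092 CPM (1122 ± 67.8, SD, n = 3) and knockout libraries 981, 1123 and 1053 CPM (1052 ± 71.2), so that the groups overlapped.

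**Figure D3:**
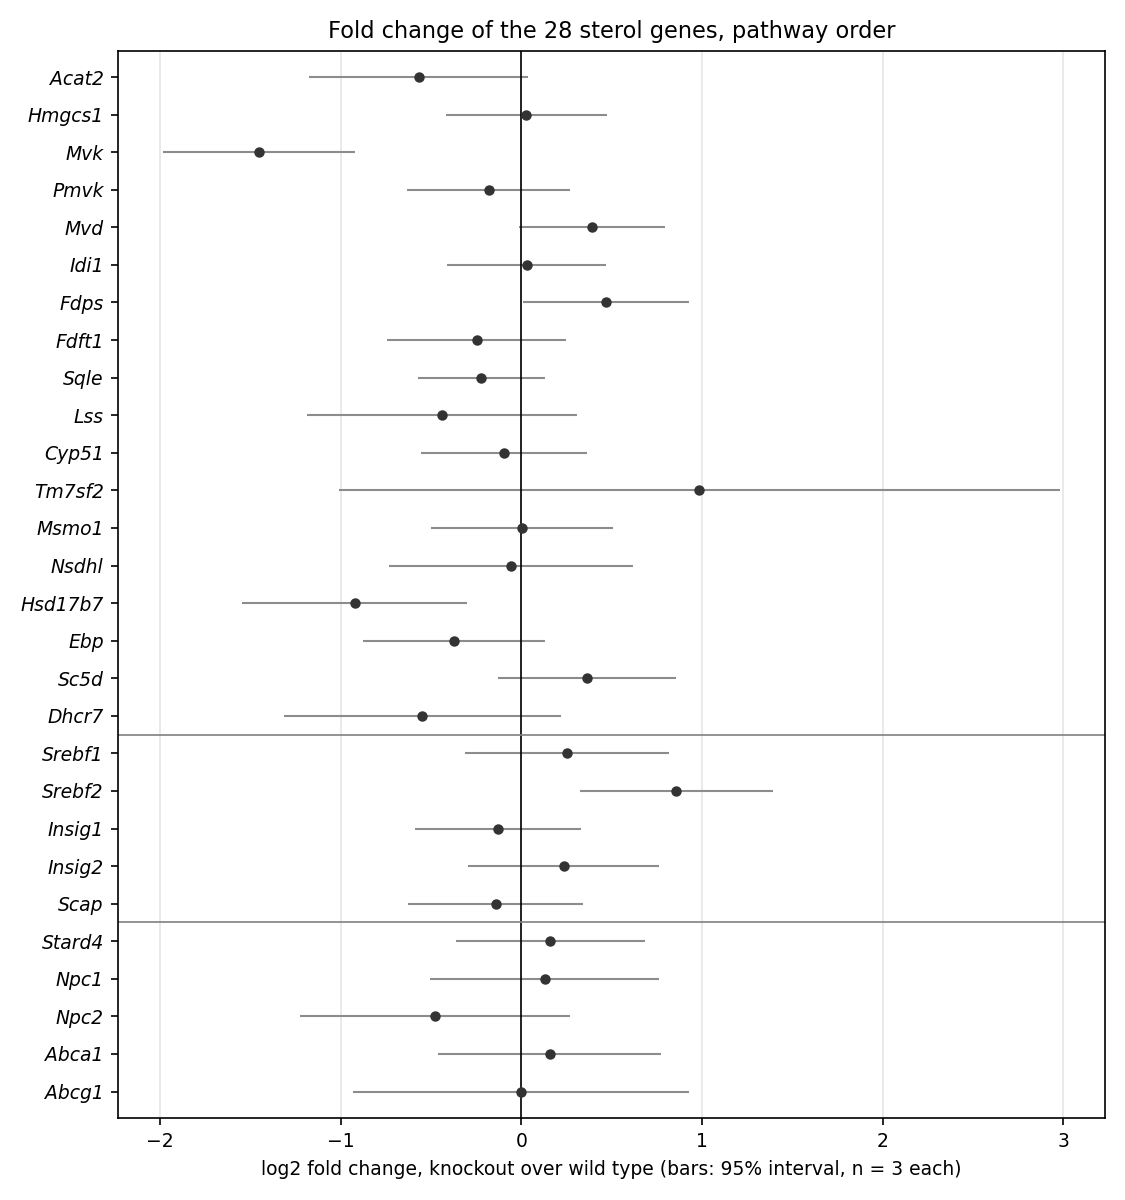
Log2 fold change of each of the 28 sterol genes, knockout over wild type, in pathway order, with its 95% interval from edgeR's fit of 3 libraries per group. The interval holds 0 for 24 genes, and those of Mvk and Hsd17b7 lie below 0 and those of Fdps and Srebf2 above it.

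Among the SREBP factors and their regulators, Srebf2 was higher in every knockout library, and the groups overlapped in the other 4 genes. Srebf2 (chr15:82147181-82205379, plus strand) encodes SREBP-2, the factor mainly responsible for sterol synthesis genes. It stood at 102, 123 and 132 CPM in wild type (119 ± 15.4, SD, n = 3) and at 158, 263 and 226 CPM in the knockout (216 ± 52.8). Knockout replicate 1 was the nearest to wild type, and the knockout mean was 1.81 times the wild type mean. The log2 fold change was 0.86 (SE 0.23, 95% interval 0.32 to 1.39), with an adjusted p of 0.183 in edgeR's test. DESeq2 gave an adjusted p of 0.0197 and edgeR without knockout replicate 1 one of 0.0391, and over 16 alternatives it ran from 0.0197 to 0.9995, with log2 fold changes from 0.44, for knockout replicate 1 alone against wild type, to 1.04. Knockout replicates 2 and 3, with the higher Srebf2 levels, are also those with the lowest yolk sac and trophoblast marker sums (26.0 and 39.7 CPM, and 50.6 and 139.9 CPM), and the part of this in the difference was not tested.

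Srebf1, whose products mainly drive fatty acid synthesis, ranged from 11.4 to 17.4 CPM in wild type and from 15.5 to 20.5 CPM in the knockout, with a log2 fold change of 0.25 (95% interval -0.31 to 0.82). Insig1, itself a target of SREBP, ranged from 32.7 to 42.6 CPM against 28 to 38.3 CPM, with a log2 fold change of -0.13 (95% interval -0.59 to 0.33). Insig2, the other retention protein, ranged from 90.9 to 143 CPM against 120.3 to 167 CPM, with an interval of -0.29 to 0.76. The groups overlapped in each of these genes. Scap, the escort protein, ranged from 59.1 to 88.1 CPM against 56.9 to 74.6 CPM, with an interval of -0.63 to 0.34. The 18 synthesis enzymes, most of them known targets of SREBP-2, had log2 fold changes between -1.45 and 0.99 with a median of -0.14, beside 0.86 for Srebf2. These RNA counts do not measure cleaved SREBP-2 protein.

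The transport and export genes overlapped between groups in all 5 cases. Stard4, a cytosolic sterol carrier, ranged from 10.3 to 14.2 CPM in wild type and from 12.8 to 13.6 CPM in the knockout. Npc1, the membrane protein that takes cholesterol out of lysosomes, ranged from 34.5 to 66.9 CPM against 44.5 to 62.0 CPM, with a log2 fold change of 0.13 (95% interval -0.50 to 0.76). Npc2, its soluble partner, stood at 1939, 3711 and 2096 CPM in wild type and 1396, 1821 and 2343 CPM in the knockout. Wild type replicate 2, the library with the highest decidua sum, was far above the other Npc2 values, and the log2 fold change was -0.48 (SE 0.32, adjusted p = 0.511 in edgeR's test). Abca1, which loads cholesterol onto apolipoprotein A-I, ranged from 13.8 to 24.8 CPM against 17.7 to 22.7 CPM, with a log2 fold change of 0.16 (95% interval -0.46 to 0.77). Abcg1, which passes cholesterol to mature lipoproteins, ranged from 3.26 to 4.39 CPM against 2.08 to 5.07 CPM, with an interval of -0.93 to 0.93. Across all 28 genes, the 95% interval lay wholly between -1 and 1, less than a doubling in either direction, for 20. Each interval was computed for its gene alone, so the confidence does not hold for the 20 jointly.

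Other genes of the pathway, in 7 lists, gave no call at an adjusted p of 0.05 in edgeR's test, and 4 lists had at least 1 gene past 0.05 before adjustment, as 8.68% of all genes were in the higher and 6.86% in the lower direction. Of 8 genes of SREBP cleavage and of sterol-regulated degradation, 7 had higher knockout levels, with a median log2 fold change of 0.15. Mbtps1, the protease that makes the initial cut in SREBP, stood at 263, 277 and 283 CPM in wild type and 312, 356 and 354 CPM in the knockout (log2 fold change 0.31, adjusted p = 0.373 in edgeR's test). The knockout libraries of Mbtps1 lay above all wild type libraries. Of 9 tested fatty acid synthesis genes, 7 were lower, with a median of -0.52. Fads2, a fatty acid desaturase, stood at 2.86, 3.72 and 2.77 CPM in wild type and 1.53, 0.60 and 0.713 CPM in the knockout (log2 fold change -1.69, adjusted p = 0.221 in edgeR's test). Fasn, fatty acid synthase, stood at 69.9, 50.3 and 79.9 CPM against 50.9, 48.6 and 40.5 CPM (log2 fold change -0.52). Fads2 was low in every knockout library, whereas knockout replicate 1 of Fasn overlapped wild type. Of 6 tested genes of other isoprenoid branches, 4 were higher, with a median of 0.13, and Fntb and Pdss1 had log2 fold changes of -0.32 and -0.52.

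The lists of lipoprotein uptake, sterol transport and sterol export held genes in both directions. Lipa, the lysosomal acid lipase that frees cholesterol from lipoprotein esters, stood at 26.6, 20.0 and 29.6 CPM in wild type and 30.5, 46.7 and 62.0 CPM in the knockout (log2 fold change 0.87, adjusted p = 0.242 in edgeR's test). Nr1h3, the liver X receptor alpha gene, stood at 13.8, 22.4 and 10.1 CPM against 24.6, 29.7 and 28.8 CPM (log2 fold change 0.85, adjusted p = 0.265). The list of 9 lipoprotein receptor and liver X receptor genes had 5 higher and 4 lower. Lipa and Nr1h3 lay wholly above wild type, beside 12.1% of all genes, and Lrp8 and Mylip, named after their values were seen, lay wholly below it, beside 9.39%, with log2 fold changes of -1.13 and -0.59. Abca1 and Abcg1, targets of that receptor, had log2 fold changes of 0.16 and 0.00. Of 9 genes of intracellular sterol transport, 6 were higher, with a median of 0.09. Stard5, a sterol-binding protein, stood at 15.8, 17.5 and 14.9 CPM in wild type and 21.1, 26.5 and 25.5 CPM in the knockout (log2 fold change 0.60, adjusted p = 0.224 in edgeR's test). Lamp2, a lysosomal membrane protein, stood at 191, 274 and 201 CPM against 244, 373 and 411 CPM (log2 fold change 0.63, adjusted p = 0.305). Stard5 did not overlap between groups and Lamp2 did. Macrophages are rich in Lipa, Nr1h3 and Lamp2. The 10 macrophage markers went both ways: 8 had higher knockout levels, the median log2 fold change over all 10 was 0.60, Csf1r and Mrc1 had log2 fold changes of -1.45 and -1.35, and the mean of their sums was 451 CPM in wild type and 364 CPM in the knockout. Their part in these values was not tested. Of 7 tested genes of sterol esters and lipoprotein export, 2 were higher and 5 lower, with a median of -0.50. All 5 lay wholly below wild type, beside 9.39% of all genes. Nceh1, a cholesteryl ester hydrolase, stood at 29.0, 43.1 and 25.9 CPM against 13.5, 18.1 and 23.2 CPM (log2 fold change -0.84, adjusted p = 0.246 in edgeR's test), and the groups did not overlap. Abcg4, an exporter, was under 2 CPM in every library and at 0 in knockout replicate 2, with a log2 fold change of -2.86.

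Genes of steroid hormone synthesis, which consumes cholesterol, differed widely among libraries of the same group. All 7 tested genes had lower knockout means, with a median log2 fold change of -1.04. Fdx1, which passes electrons to the side-chain cleavage enzyme, stood at 425, 466 and 138 CPM in wild type and 361, 66.7 and 70.5 CPM in the knockout (log2 fold change -1.04, adjusted p = 0.543 in edgeR's test), and Por had a log2 fold change of -0.46. Star, which moves cholesterol into mitochondria and was picked after its values were seen, stood at 434, 554 and 111 CPM against 388, 19.7 and 27.3 CPM. Knockout replicate 1 resembled wild type replicates 1 and 2, and wild type replicate 3 lay between them and the other knockout libraries. The libraries stood in the same order for the summed trophoblast markers given above, and their part in the values of these genes was not tested. The medians of this list, taken per library relative to the wild type mean, were 0.16, 0.67 and -0.79 in wild type and 0.33, -2.17 and -2.09 in the knockout. Those of the 18 sterol synthesis enzymes were 0.14, -0.03 and -0.08 in wild type and -0.24, -0.04 and -0.11 in the knockout, a far narrower range.

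**Figure D4:**
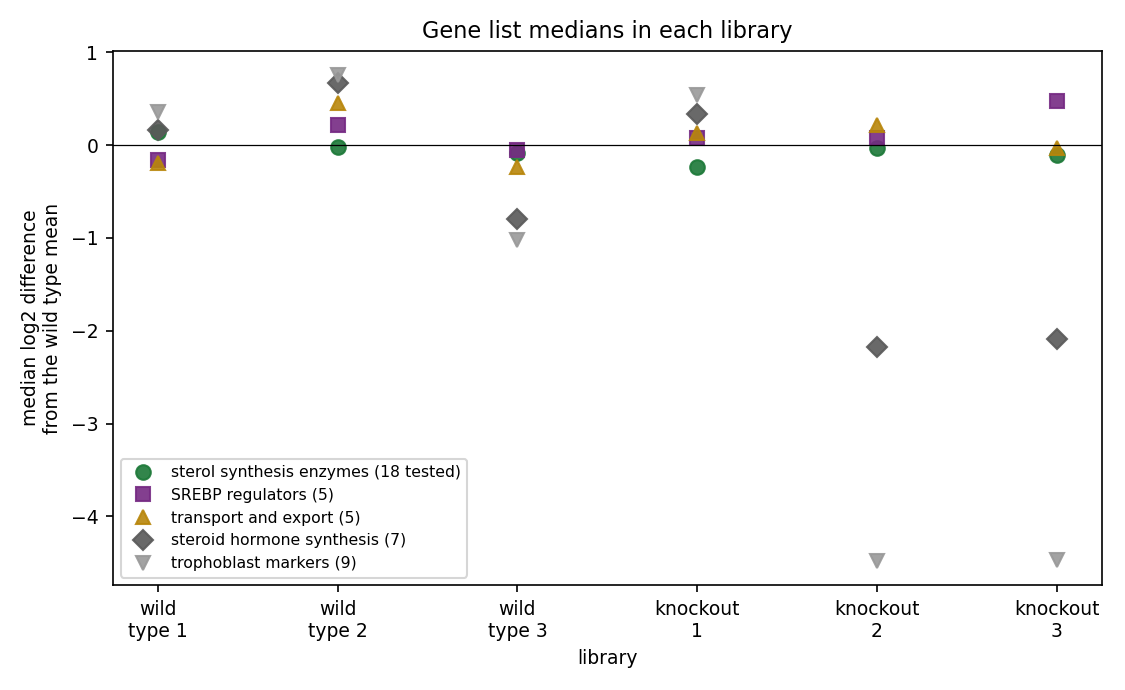
Median log2 difference from the wild type mean in each library, for the sterol synthesis enzymes, the SREBP regulators, the transport and export genes, the steroid hormone synthesis genes and the trophoblast markers. The enzymes lie between -0.24 and 0.14 in all 6 libraries, while trophoblast markers reach -4.48 and steroid hormone genes -2.17 in knockout replicate 2.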

How the data were processed

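Lexogen QuantSeq libraries were made from total RNA isolated with Trizol, per the labels' protocols. The authors deposited whole-number counts per gene symbol, without normalization, in 1 table per sample. Bowtie2, edgeR and the build mm10 are named without version or role per the submitters' processing notes; the counter, annotation and treatment of strand and of multiply matching reads are not stated in these sources. In 7 members (Hmgcs1, Mvk, Pmvk, Mvd, Idi1, Fdps and Scap) the 6 counts share a divisor above 1, so their counting error is larger than the counts show. Exons of 10 members overlap another gene, 3 of them on the same strand.

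Groups came from the titles. Genes were kept by filterByExpr (minimum count 10), scaled by TMM and compared with the quasi-likelihood test of edgeR 4.0.16 without covariates, two-sided. P-values were adjusted by Benjamini-Hochberg over all 13848 genes, with a threshold of 0.05. Nothing says that samples came from separate embryos, so p-values reflect only the spread among these 6 samples, some of which may be technical. DESeq2 1.42.0, limma-voom (limma 3.58.1), other scalings and filters, a replicate block, division by the common divisor and left-out libraries were the 16 alternatives. The fit was tested on simulated counts with the estimated dispersion. It recovered 67 of 100 genes changed by 4 times and 96 of 100 changed by 8 times, with 6 false calls. Smaller changes were not simulated. The code in the sample descriptions has no stated meaning. Its leading number is 45 in every sample but wild type replicate 1, where it is 32. The values without that replicate are the comparison among samples with the leading number 45. Positions come from GENCODE M21, promoters from RefSeq. R 4.3.3 and Python 3.11.15 were used.

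Members and lists were chosen with earlier results of these data known. Full statistics were given to members past the threshold and, since none passed, to the 12 with the smallest p; from each other list the 2 with the smallest p were named, except 1 gene that is not reported here.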

Additional observations from a re-analysis of the deposited data

How the results depend on the processing

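The median log2 fold change of the 28 genes (-0.03) stayed between -0.11 and 0.05 under all 16 alternatives. The number of all genes called higher went from 0 to 470 with DESeq2 and ranged from 0 to 252 with each library left out, and of those called lower from 7 to 387 with DESeq2, to 0 with the replicate block, to 0 with knockout replicate 1 alone, and from 0 to 466 with each library left out. The highest of these came without knockout replicate 1, and 0 were called lower without wild type replicate 1 or knockout replicate 2 or 3. Members called were 1 higher and 2 lower with DESeq2, and ranged from 0 to 1 in each direction with each library left out. Mvk, Srebf2 and Hsd17b7 kept their direction under all 16 alternatives. Without wild type replicate 1, the comparison among samples with the same leading code number, their log2 fold changes were -1.39, 0.76 and -0.84. In the replicate block they were -1.42, 0.84 and -0.87 (adjusted p = 0.198, 0.210 and 0.266 in edgeR's test), and no member was called. Same-numbered libraries did not deviate together (correlations 0.127, -0.02 and 0.0706), so the numbers were not taken to pair them.

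Signs turned only in members whose log2 fold change lay between -0.18 and 0.16. With knockout replicate 1 alone, which is assumed to vary like the other libraries, Hmgcs1 gave -0.0686, Pmvk 0.0011, Idi1 -0.11, Msmo1 -0.38 and Scap 0.0786. Msmo1 gave -0.0124 with DESeq2 size factors, -0.0235 with the filter of 5 CPM in 3 libraries, -0.0127 with DESeq2, -0.0237 with limma-voom and -0.0185 with the replicate block. Abcg1 gave 0.0050 with upper quartile factors, 0.0127 without a filter and 0.0026 with the common divisor removed. With each library left out, the ranges that crossed 0 were -0.10 to 0.13 for Hmgcs1, -0.0182 to 0.11 for Idi1, -0.21 to 0.10 for Cyp51, -0.15 to 0.17 for Msmo1, -0.18 to 0.15 for Nsdhl, -0.27 to 0.0456 for Scap, -0.0773 to 0.42 for Npc1, -0.0275 to 0.42 for Abca1 and -0.20 to 0.32 for Abcg1. Tm7sf2 and Abcg1 did not reach the filter of 5 CPM and have 15 alternatives. With 3 libraries per group, Tm7sf2 and Abcg1, at few counts, had the least precise values.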

Other observations

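Of the 28 genes, 4 start within 1000 bases of a protein-coding gene that runs the other way. Cetn2, a centrosomal protein gene 146 bases from Nsdhl, stood at 50.5, 53.3 and 59.0 CPM in wild type and 63.1, 80.3 and 71.4 CPM in the knockout, with a log2 fold change of 0.40 (adjusted p = 0.309 in edgeR's test), beside -0.06 for Nsdhl. Nadsyn1, which makes NAD, is 296 bases from Dhcr7 and had a log2 fold change of -0.25, beside -0.55 for Dhcr7. Isca2, an iron-sulfur cluster gene, is 99 bases from Npc2 and had a log2 fold change of -0.02, beside -0.48 for Npc2. None of these pairs was tested for a difference between its genes.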
